A study of Mus musculus with 6 samples.

Results

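The genes of BMP, activin and TGF-beta signalling described here are 50 genes chosen by their known role as ligands, receptors, SMAD proteins, secreted antagonists or proteins that store and process the ligands. They and the gene lists set beside them were chosen with earlier results of these data known, so their counts are descriptive. All 50 had a probeset with no other gene symbol, and each had 1, among 19933 genes measured in this way. They were measured in NCU10K, an immortalized mouse neural crest cell line, on Affymetrix mouse gene arrays. In the first group, cells received 1 siRNA against Nedd4, a ubiquitin ligase, and in the second a low GC control siRNA. Both were transfected with RNAiMAX and grown in DMEM with 10% FCS, and RNA was taken after 48 h from 3 separate experiments per siRNA, with 300 ng used for each array. No other Nedd4 siRNA and no rescue were among the arrays, so an effect of this siRNA and an effect of less Nedd4 cannot be told apart. The methods place the RNA in 1 well of a multiwell plate and the design notes in larger dishes, which was not reconciled.

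Ligands of this family bind pairs of type I and type II receptors, which are serine/threonine kinases. The activated type I receptor phosphorylates receptor SMADs, SMAD1, SMAD5 and SMAD9 for most BMP signals and SMAD2 and SMAD3 for TGF-beta and activin, and these enter the nucleus with SMAD4. Secreted antagonists hold ligands away from receptors, and latent TGF-beta binding proteins keep TGF-beta in the matrix. In neural crest, BMP signals take part in induction and in the formation of sympathetic neurons, and TGF-beta signals in the formation of smooth muscle and craniofacial mesenchyme.

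Nedd4 itself had log2 values of 10.45, 10.94 and 10.68 in Nedd4 siRNA cells, against 12.24, 12.35 and 12.34 in control siRNA cells. The groups did not overlap, and the log2 fold change, Nedd4 siRNA minus control siRNA throughout, was −1.62 (limma, adjusted p = 3.16e-06 by Benjamini-Hochberg over all probesets, SE 0.117). By the two-sided exact permutation test p was 0.1, the smallest that 3 arrays against 3 allow. Array medians lay between 6.28 and 6.35 on the log2 scale and correlations between arrays of a group at 0.994 or above, against 0.987 to 0.991 between groups. Precision is limited by the number of arrays, with a median residual SD per probeset of 0.117. Levels are of cell populations, in which fewer cells of a type and less RNA per cell cannot be told apart.

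Of the 50 genes, 18 passed the threshold of 0.05 on the adjusted p, 10 higher and 8 lower in Nedd4 siRNA cells. Among all 19933 genes 18.7% passed, 9.62% higher and 9.13% lower. These shares differed with signal. Probesets with a mean over the 6 arrays above the median of all probesets, 6.32, are called bright here and the others dim. Among bright probesets 18 of 28 pathway genes passed, against 33.4% of all genes. Among dim probesets 0 of 22 passed by limma, with adjusted p between 0.51 and 0.952, 0 at an unadjusted p under 0.05 and 0 by the methods' t-test, against 3.03% of all genes by limma. The median log2 fold change was close to 0 in both cases, at −0.005 for the 50 genes and −0.02 for all genes. Among bright probesets the median size of the log2 fold change was 0.40 for the pathway genes and 0.21 for all genes. All 18 had groups that did not overlap, as did 25 of the 50 in all, where 31.7% of all genes did not overlap. Among bright probesets the groups did not overlap for 24 of the 28 pathway genes and for 5180 of 10319 genes in all. Falls ranged between 1.27-fold and 2.74-fold, and rises between 1.23-fold and 1.48-fold. The plot of each array's value shows the 18 genes in order.

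**Figure D1:**
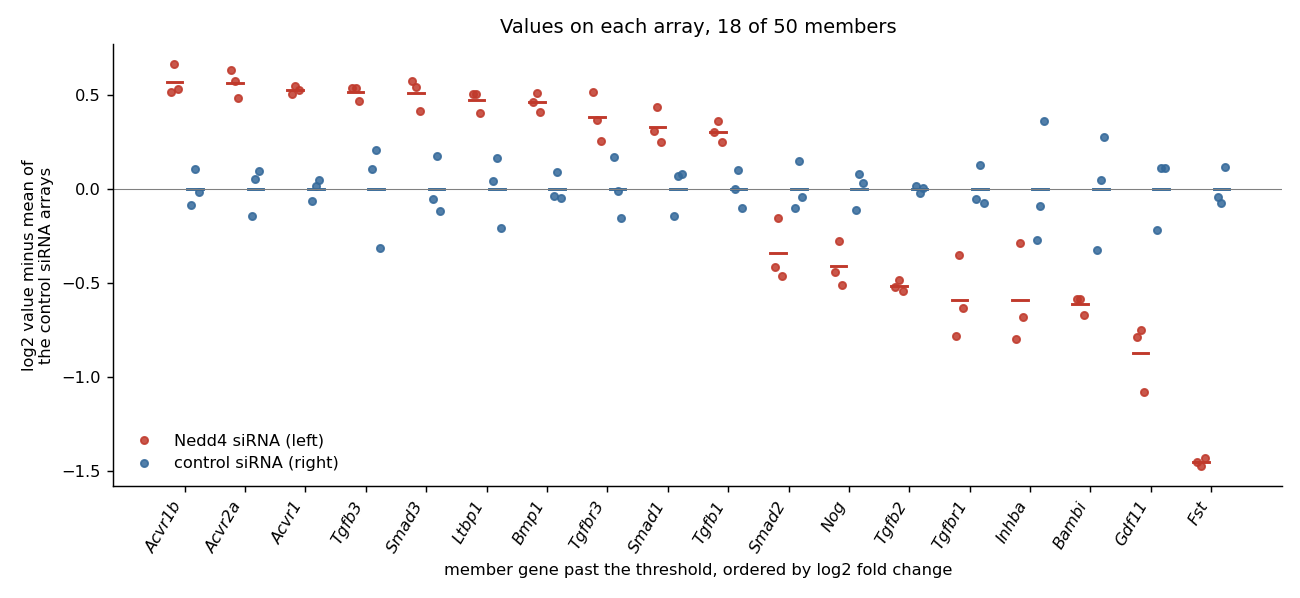
Log2 value on each array minus the mean of the control siRNA arrays (y axis) for the 18 genes past the threshold (x axis, ordered by log2 fold change). Points are arrays, Nedd4 siRNA left and control siRNA right of each tick, and short lines are means of 3 arrays. No gene has overlapping groups, and Fst, at −1.45, stands farthest from 0.

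Promoter windows of 34 of the 50 genes were found in the RefSeq table for GRCm38.p6. A window runs 240 bases before the annotated start and 10 bases from it, and 5 of the 34 genes had more than 1 start. Windows were searched for 3 sequences that SMAD complexes are known to bind. These were CAGAC on either strand (GTCTG on the other), GGCGCC and the palindrome GTCTAGAC, none of which overlaps another. CAGAC was found for 17 of the 34 genes, a share of 50%, against 46.6% of all 27025 genes in the table. GGCGCC was found for 7 of the 34 and in 11.1% of all genes, and GTCTAGAC for 1 of the 34 and in 0.189% of all. Counted over all listed starts of a gene, CAGAC was found for 2 of the 7 genes that rose, 2 of the 4 that fell and 13 of the 23 that did not pass. A match is a description of the letters and not a site in use. The windows below are printed for a ligand and a type I receptor that fell, Tgfb2 and Tgfbr1, for a type II receptor that rose, Acvr2a, and for Smad6, which alone held the palindrome. The first listed start is shown for Tgfbr1, whose CAGAC lies at its other start and not in the window printed. All are written 5′ to 3′ on the gene's strand with the matches in capitals. Tgfb2 lies at chr1:186705980-186706229 on the minus strand, Tgfbr1 at chr4:47352982-47353231 on the plus strand, Acvr2a at chr2:48813869-48814118 on the plus strand and Smad6 at chr9:64022050-64022299 on the minus strand.
Tgfb2: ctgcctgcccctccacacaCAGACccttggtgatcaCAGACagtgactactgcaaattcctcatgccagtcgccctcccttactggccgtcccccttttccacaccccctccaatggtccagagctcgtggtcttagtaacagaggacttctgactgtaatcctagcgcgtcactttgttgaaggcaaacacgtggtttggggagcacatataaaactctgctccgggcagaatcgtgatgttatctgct
Tgfbr1: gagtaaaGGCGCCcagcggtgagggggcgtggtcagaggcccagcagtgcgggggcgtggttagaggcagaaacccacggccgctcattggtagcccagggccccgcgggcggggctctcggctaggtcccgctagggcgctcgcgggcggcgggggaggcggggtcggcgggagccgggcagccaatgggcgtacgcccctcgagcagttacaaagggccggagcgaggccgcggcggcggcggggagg
Acvr2a: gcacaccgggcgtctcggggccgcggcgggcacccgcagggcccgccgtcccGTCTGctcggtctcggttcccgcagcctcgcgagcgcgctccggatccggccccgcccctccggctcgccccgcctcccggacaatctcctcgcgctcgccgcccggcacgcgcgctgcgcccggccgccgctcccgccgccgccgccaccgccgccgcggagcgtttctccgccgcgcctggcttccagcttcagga
Smad6: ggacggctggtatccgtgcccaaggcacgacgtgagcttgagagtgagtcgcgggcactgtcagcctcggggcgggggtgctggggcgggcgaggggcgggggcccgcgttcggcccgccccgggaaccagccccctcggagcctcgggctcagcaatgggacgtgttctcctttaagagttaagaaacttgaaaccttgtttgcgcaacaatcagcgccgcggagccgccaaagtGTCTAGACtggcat
Tgfb2 held CAGAC at positions −221 and −204 from the start, Tgfbr1 held GGCGCC at −233, Acvr2a held GTCTG at −188, and the palindrome of Smad6 began at −4 and so spanned the start.

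The ligands split by isoform. All 3 TGF-beta genes passed the threshold, Tgfb1 and Tgfb3 higher and Tgfb2 lower in Nedd4 siRNA cells. Tgfb2, a TGF-beta needed for heart, skeletal and craniofacial development, had log2 values of 11.45, 11.49 and 11.43 in Nedd4 siRNA cells, against 11.99, 11.95 and 11.98 in control siRNA cells. These groups were far apart beside their spread, and the log2 fold change was −0.52 (adjusted p = 0.000838, SE 0.0821). Tgfb3, which acts in palate fusion, had 9.21, 9.21 and 9.14 in Nedd4 siRNA cells, against 8.78, 8.88 and 8.36 in control siRNA cells. Control siRNA replicate 3 was the lowest of these, and the log2 fold change was 0.51 (adjusted p = 0.0117, SE 0.123). Tgfb1, a regulator of matrix and immunity, had 11.09, 11.15 and 11.04 in Nedd4 siRNA cells, against 10.79, 10.89 and 10.69 in control siRNA cells. The groups did not overlap, with a log2 fold change of 0.30 (adjusted p = 0.0362, SE 0.0896). The call for Tgfb1 was lost without any 1 of Nedd4 siRNA replicates 1, 2 and 3 or control siRNA replicates 1 and 3, at adjusted p between 0.0648 and 0.128.

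Among the other ligands, Gdf11, an activin-like ligand that patterns the trunk axis, fell most. Its log2 values were 7.67, 7.71 and 7.38 in Nedd4 siRNA cells, against 8.24, 8.57 and 8.57 in control siRNA cells, with no overlap. The log2 fold change was −0.87 (adjusted p = 0.000283, SE 0.119), which is 1.83-fold lower. Inhba, the activin A subunit, also fell. It had 9.48, 9.99 and 9.60 in Nedd4 siRNA cells, against 10.01, 10.19 and 10.64 in control siRNA cells, so that Nedd4 siRNA replicate 2 came within 0.02 of a control. The log2 fold change was −0.59 (adjusted p = 0.024, SE 0.161), and the call was lost without control siRNA replicate 3 (adjusted p = 0.104), Nedd4 siRNA replicate 1 (0.118) or Nedd4 siRNA replicate 3 (0.0712). The other 9 BMP and GDF ligands, Bmp2 to Bmp7, Gdf5, Gdf6 and Gdf10, all had dim probesets, as did the activin B and inhibin alpha subunits Inhbb and Inha. Those 9 had mean log2 values between 5.22 and 6.05 and log2 fold changes between −0.11 and 0.05, and none passed (adjusted p between 0.556 and 0.952). Inhbb and Inha differed by −0.06 each (adjusted p = 0.839 and 0.823).

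**Figure D2:**
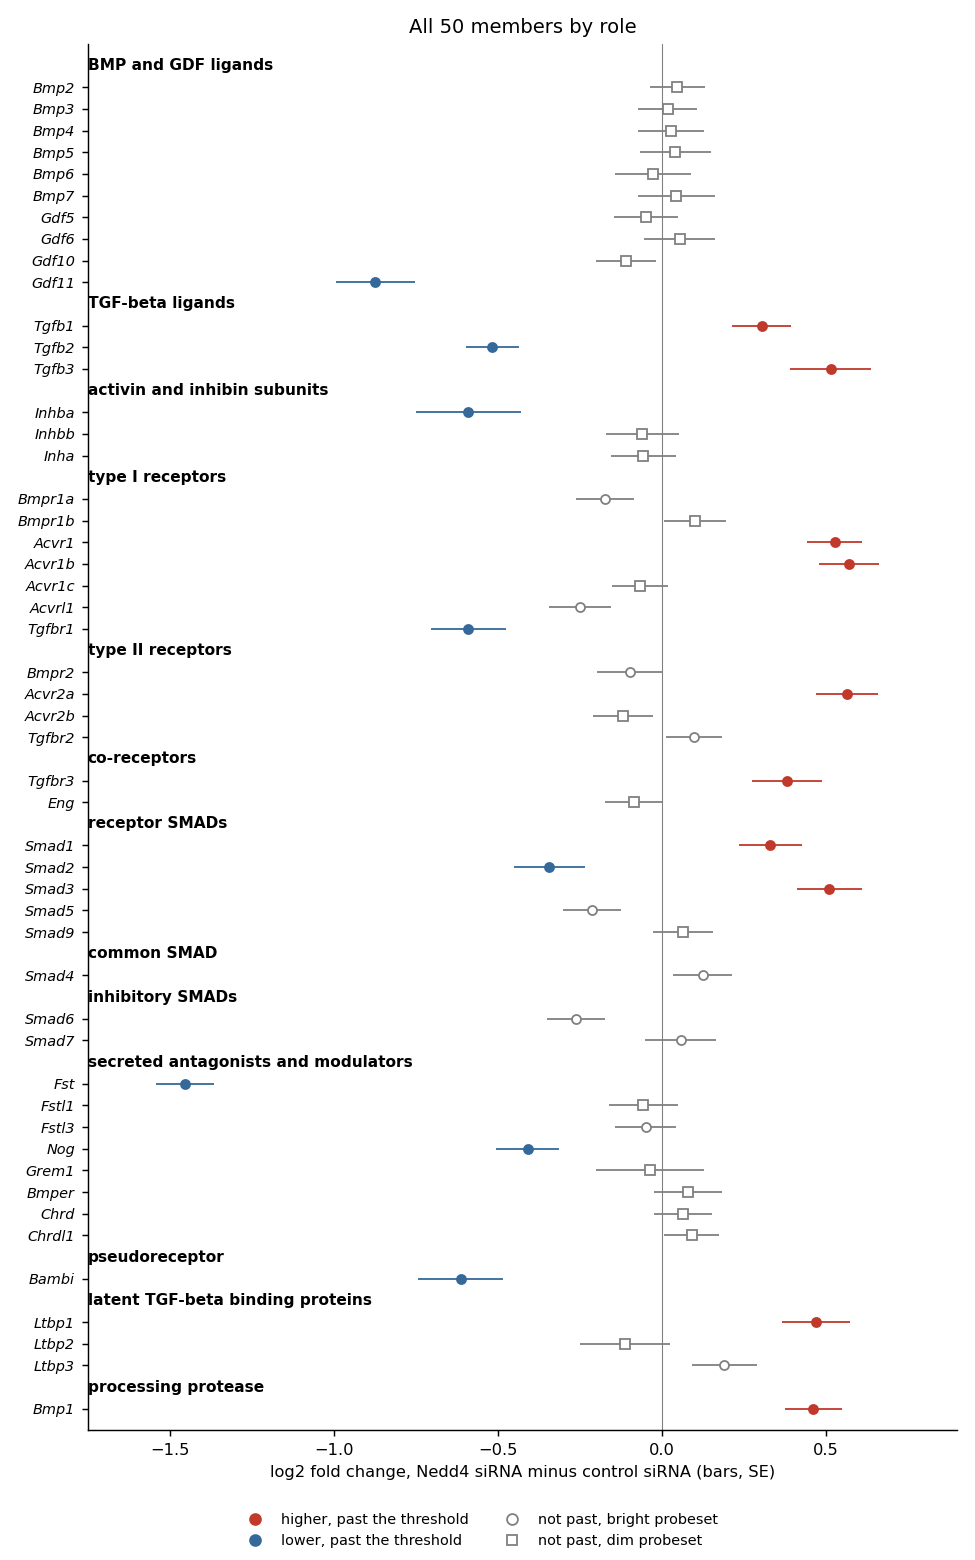
Log2 fold change, Nedd4 siRNA minus control siRNA (x axis), of all 50 genes grouped by role (y axis), with bars for the SE from limma over 3 arrays per siRNA. Filled points passed the threshold, red for higher and blue for lower, and squares mark genes with dim probesets. Every filled point lies among the 28 genes with bright probesets, and the TGF-beta ligands, type I receptors and receptor SMADs each hold filled points on both sides of 0.

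Of the 7 type I receptors, the kinases that phosphorylate SMADs, 2 rose and 1 fell. Acvr1, also known as ALK2, a receptor for BMPs, had log2 values of 9.34, 9.38 and 9.36 in Nedd4 siRNA cells, against 8.77, 8.85 and 8.88 in control siRNA cells. Its groups were tight and apart, with a log2 fold change of 0.53 (adjusted p = 0.000835, SE 0.0836). Acvr1b, the activin type I receptor ALK4, had 7.54, 7.69 and 7.56 in Nedd4 siRNA cells, against 6.94, 7.13 and 7.01 in control siRNA cells. Here too every Nedd4 siRNA array was above every control siRNA array, with a log2 fold change of 0.57 (adjusted p = 0.000884, SE 0.0913). Tgfbr1, the TGF-beta type I receptor, fell, with 7.86, 8.29 and 8.01 in Nedd4 siRNA cells, against 8.59, 8.77 and 8.57 in control siRNA cells. Nedd4 siRNA replicate 2 was nearest to the controls, and the log2 fold change was −0.59 (adjusted p = 0.00325, SE 0.115). The BMP receptor Bmpr1a had a log2 fold change of −0.17 (adjusted p = 0.252, SE 0.0878) and the endothelial BMP9 receptor Acvrl1 one of −0.25 (adjusted p = 0.109, SE 0.0956). In both the Nedd4 siRNA arrays were all below the control siRNA arrays, without passing the test. Bmpr1b and Acvr1c, both with dim probesets, differed by 0.10 and −0.07 (adjusted p = 0.62 and 0.74).

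Among the 4 type II receptors, which bind ligand and activate the type I partner, Acvr2a alone passed. This activin and BMP receptor had log2 values of 7.98, 7.92 and 7.83 in Nedd4 siRNA cells, against 7.20, 7.40 and 7.44 in control siRNA cells. There was no overlap, and the log2 fold change was 0.56 (adjusted p = 0.00127, SE 0.095). Its relative Acvr2b, with a dim probeset, differed by −0.12 (adjusted p = 0.51, SE 0.0918). The BMP receptor Bmpr2 had means of 11.47 ± 0.0945 in Nedd4 siRNA cells and 11.56 ± 0.156 in control siRNA cells (SD, n = 3 each), and its log2 fold change was −0.10 (limma adjusted p = 0.666, SE 0.101). For the TGF-beta receptor Tgfbr2 the means were 8.84 ± 0.0551 in Nedd4 siRNA cells and 8.74 ± 0.0529 in control siRNA cells (SD, n = 3 each), a log2 fold change of 0.10 (limma adjusted p = 0.586, SE 0.0851). Every Nedd4 siRNA array was above every control siRNA array for Tgfbr2, without passing the test. Whether the change of Acvr2a differed from those of the other 3 was not tested. Of the co-receptors, Tgfbr3, or betaglycan, which presents TGF-beta to its receptors, had 6.85, 6.70 and 6.59 in Nedd4 siRNA cells, against 6.5, 6.32 and 6.18 in control siRNA cells. The lowest Nedd4 siRNA value stood just above the highest control value, with a log2 fold change of 0.38 (adjusted p = 0.0273, SE 0.106). That call was lost without control siRNA replicates 2 or 3 or Nedd4 siRNA replicates 1 or 2, at adjusted p between 0.0567 and 0.156. Eng, or endoglin, the other co-receptor, had a dim probeset and differed by −0.09 (adjusted p = 0.653).

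Of the 5 receptor SMADs 2 rose, 1 fell and 2 did not pass. Those of each branch of the pathway had fold changes on both sides of 0, and differences between the SMADs were not tested. Smad3, which carries TGF-beta and activin signals and binds DNA itself, had log2 values of 9.26, 9.23 and 9.10 in Nedd4 siRNA cells, against 8.63, 8.86 and 8.57 in control siRNA cells. The groups were separate, with a log2 fold change of 0.51 (adjusted p = 0.00341, SE 0.0998). Smad2, its partner in the same branch, had 8.27, 8.53 and 8.22 in Nedd4 siRNA cells, against 8.58, 8.83 and 8.64 in control siRNA cells. The gap between the groups was small, and the log2 fold change was −0.34 (adjusted p = 0.0472, SE 0.107), close to the threshold. The Smad2 call was lost without control siRNA replicates 2 (adjusted p = 0.151) or 3 (0.0855), without Nedd4 siRNA replicates 1 (0.19) or 3 (0.175), with trend and robust fitting (0.0517) and with median centring (0.0906). Smad1, of the BMP branch, had 8.39, 8.52 and 8.33 in Nedd4 siRNA cells, against 7.94, 8.15 and 8.16 in control siRNA cells. It was higher with no overlap, with a log2 fold change of 0.33 (adjusted p = 0.0346, SE 0.0965), and the call was lost without control siRNA replicate 1 (adjusted p = 0.118) or Nedd4 siRNA replicates 1 (0.105) or 2 (0.127). Smad5, of the same branch, differed by −0.21 (adjusted p = 0.143, SE 0.0883), with every Nedd4 siRNA array below every control siRNA array, and Smad9, with a dim probeset, by 0.06 (adjusted p = 0.78, SE 0.0924).

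Smad4, the partner shared by both branches, had means of 10.54 ± 0.0361 in Nedd4 siRNA cells and 10.42 ± 0.119 in control siRNA cells (SD, n = 3 each), and a log2 fold change of 0.12 (limma adjusted p = 0.491, SE 0.0911). Every Nedd4 siRNA array was above every control siRNA array for Smad4, without passing the test. The inhibitory SMADs, which block receptors and are themselves induced by the pathway, did not pass either. Smad6, whose window holds the palindrome printed above, averaged 7.70 ± 0.0451 in Nedd4 siRNA cells and 7.97 ± 0.0929 in control siRNA cells (SD, n = 3 each). Its groups did not overlap, and its log2 fold change was −0.26 (limma adjusted p = 0.0643, SE 0.0881). Smad6 passed after quantile normalization (adjusted p = 0.0403), among bright probesets alone (0.0383) and without control siRNA replicate 3 (0.0437). Smad7 differed by 0.06 (adjusted p = 0.846, SE 0.109), and by −0.05 without control siRNA replicate 3.

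Secreted antagonists held the largest change of the 50 genes. Fst, or follistatin, which binds activins and GDF11 and keeps them from their receptors, had log2 values of 6.72, 6.70 and 6.74 in Nedd4 siRNA cells, against 8.13, 8.10 and 8.29 in control siRNA cells. The arrays of a group lay within 0.2 of each other and the groups were more than 1.3 apart. The log2 fold change was −1.45 (adjusted p = 1.12e-06, SE 0.0882), which is 2.74-fold lower. Nog, or noggin, a BMP antagonist, also fell, with 6.79, 6.95 and 6.72 in Nedd4 siRNA cells, against 7.12, 7.31 and 7.26 in control siRNA cells. Its groups did not overlap, with a log2 fold change of −0.41 (adjusted p = 0.0102, SE 0.0958), and the call was lost without Nedd4 siRNA replicate 1 (adjusted p = 0.0559). Bambi, a receptor-like protein without a kinase domain that dampens BMP and TGF-beta signals, had 8.66, 8.66 and 8.57 in Nedd4 siRNA cells, against 8.92, 9.29 and 9.52 in control siRNA cells. The controls were the more spread group, and the log2 fold change was −0.61 (adjusted p = 0.00569, SE 0.13). The 6 other secreted antagonists and modulators, among them the follistatin-like genes Fstl1 and Fstl3, the BMP antagonists Chrd and Grem1, and Chrdl1 and Bmper, had log2 fold changes between −0.06 and 0.09 and did not pass (adjusted p between 0.609 and 0.941). All of them but Fstl3 had dim probesets, and Chrdl1 alone had groups that did not overlap, with the Nedd4 siRNA arrays higher.

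Among genes of proteins that store and process the ligands, Ltbp1 and Bmp1 rose. Ltbp1, which anchors latent TGF-beta in the matrix, had log2 values of 10.18, 10.18 and 10.08 in Nedd4 siRNA cells, against 9.72, 9.84 and 9.47 in control siRNA cells. No array crossed between groups, and the log2 fold change was 0.47 (adjusted p = 0.0074, SE 0.104). Bmp1, which is not a BMP ligand but a metalloprotease that cleaves procollagen, chordin and LTBP1, had 10.77, 10.82 and 10.72 in Nedd4 siRNA cells, against 10.27, 10.40 and 10.26 in control siRNA cells. The groups were again apart, with a log2 fold change of 0.46 (adjusted p = 0.00271, SE 0.0868). Ltbp3 differed by 0.19 (adjusted p = 0.271, SE 0.0994) with overlapping groups, and Ltbp2, with a dim probeset, by −0.11 (adjusted p = 0.719, SE 0.136).

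Of the 18 calls 6, those of Fst, Tgfb2, Acvr1, Acvr1b, Acvr2a and Bmp1, held under all 16 alternative settings. None of the 18 changed direction. With groups that did not overlap, only quantile normalization and median centring could have changed one. The methods' t-test, which takes each probeset's spread alone, passed these 6 genes and not the other 12, where it passed 9.05% of all genes against 18.7% by limma. The plot of fold changes with each array left out shows where single arrays decided a call.

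**Figure D3:**
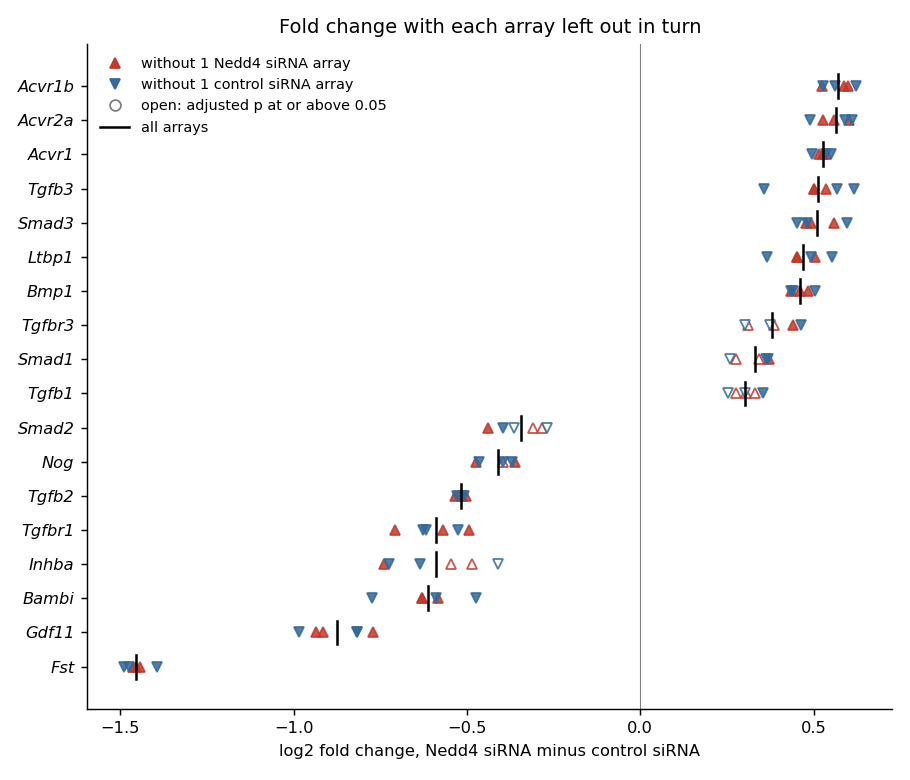
Log2 fold change, Nedd4 siRNA minus control siRNA (x axis), of the 18 genes past the threshold (y axis) with each of the 6 arrays left out in turn. Red triangles leave out a Nedd4 siRNA array, blue triangles a control siRNA array, black lines use all arrays, and open symbols mark an adjusted p at or above 0.05 from limma. Open symbols appear for Tgfbr3, Smad1, Tgfb1, Smad2, Nog and Inhba. Every symbol stays on its gene's side of 0, which groups without overlap fix in advance.

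Genes of the pathway outside the 50 were taken from lists of known members. Of 83 measured, 16 passed, 9 higher and 7 lower, a share of 19.3% beside the 18.7% of all genes, and 49 of the 83 had bright probesets. None of 15 other ligands and none of 6 other receptors and co-receptors passed by limma, with 0 at an unadjusted p under 0.05. Groups did not overlap for 2 of the ligands and 1 of the receptors, beside 31.7% of all genes. Dim probesets, among which 3.03% of all genes passed, were those of 14 of the ligands and 3 of the receptors. The smallest p among the ligands were those of Gdf2 (−0.20, adjusted p = 0.205) and Lefty2 (−0.13, adjusted p = 0.392). Among the receptors they were those of Tdgf1 (−0.10, adjusted p = 0.678) and Neo1 (−0.06, adjusted p = 0.776). The methods' t-test passed Lefty2 (adjusted p = 0.0494) and Neo1 (0.0278).

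Among 25 other secreted antagonists and latency factors 1 rose and 3 fell, a share of 16.0% beside 18.7% of all genes. Of the 25, 10 had bright probesets, and the median log2 fold change was −0.05. The gene that rose was Dcn, or decorin, a matrix proteoglycan that binds TGF-beta (0.58, adjusted p = 0.000439, SE 0.084). Those that fell were the antagonist Sost (−0.41, adjusted p = 0.012), with a dim probeset, and the proprotein convertases Furin (−0.38, adjusted p = 0.0128) and Pcsk6 (−0.42, adjusted p = 0.0168), which cleave ligand precursors. Calls were lost without Nedd4 siRNA replicate 2 for Sost (adjusted p = 0.0517), without Nedd4 siRNA replicates 1 (0.0663) or 3 (0.0531) for Furin, and for Pcsk6 without control siRNA replicates 1 or 2 or Nedd4 siRNA replicates 1 or 3 (0.0528 to 0.0901).

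Intracellular regulators of SMADs and receptors held the other 12 calls, 8 higher and 4 lower of 37 measured, with a median log2 fold change of 0.08. Of the 37, 35 had bright probesets, and the share that passed, 32.4%, was close to the 33.4% of all genes with bright probesets. Bmp2k, a kinase whose gene is induced by BMP2, had log2 values of 9.90, 9.79 and 9.85 in Nedd4 siRNA cells, against 8.25, 8.58 and 8.64 in control siRNA cells, a log2 fold change of 1.36 (adjusted p = 6.61e-06, SE 0.108). Smurf2, a ubiquitin ligase of the NEDD4 family that acts on SMADs and receptors, had 10.65, 10.62 and 10.59 in Nedd4 siRNA cells, against 9.95, 9.93 and 9.90 in control siRNA cells. Both were higher with wide gaps, Smurf2 with a log2 fold change of 0.69 (adjusted p = 0.000106, SE 0.0822). Zeb1, a SMAD-binding transcription factor (0.80, adjusted p = 6.42e-05), and Usp15, a deubiquitinase of receptors and SMADs (0.78, adjusted p = 7.64e-05), rose as well. Pmepa1, Xiap, Usp4 and Lemd3 were the other rises, at 0.46, 0.40, 0.36 and 0.43. Falls were those of the deubiquitinase Usp11 (−0.86, adjusted p = 0.000559), the phosphatase Ctdspl (−0.36, adjusted p = 0.0138) and the NEDD4-family ligases Wwp2 (−0.62, adjusted p = 0.000459) and Nedd4l (−0.35, adjusted p = 0.0306). Smurf1, Wwp1 and Itch, of the same family, differed by 0.08, 0.02 and 0.08 and did not pass (adjusted p = 0.708, 0.939 and 0.69).

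Of 44 genes known from other systems as targets of the pathway, 17 passed, 11 higher and 6 lower, and 7 of the 44 are themselves among the 50. That share of 38.6% stands beside 18.7% of all genes and 33.4% of genes with bright probesets, which 34 of the 44 had. Without Nedd4 siRNA replicate 1 the count was 9, and the methods' t-test passed 3. Of 22 TGF-beta and activin targets, 10 rose and 1 fell, with a median log2 fold change of 0.17. The mean log2 level over these 22 genes lay between 9.52 and 9.55 on the Nedd4 siRNA arrays, against 9.30 to 9.39 on the control siRNA arrays. Itgb5, an integrin subunit, had 10.94, 10.91 and 10.89 in Nedd4 siRNA cells, against 10.23, 10.32 and 10.13 in control siRNA cells (0.69, adjusted p = 0.000177, SE 0.0875). Klf10, a TGF-beta-inducible transcription factor, had 10.16, 10.14 and 10.19 in Nedd4 siRNA cells, against 9.60, 9.59 and 9.46 in control siRNA cells (0.61, adjusted p = 0.000341, SE 0.0856). Neither overlapped between groups. Timp1, a metalloprotease inhibitor (0.83, adjusted p = 0.00133), and Junb, an AP-1 subunit (0.61, adjusted p = 0.0036), were also higher. The remaining rises were Pmepa1 (0.46), Ccn2 (0.41), Fn1 (0.35), Bcl2l11 (0.37), Cdkn2b (0.36) and Angptl4 (0.28, adjusted p = 0.0459), the last with a dim probeset. Snai2, a neural crest transcription factor, fell (−0.33, adjusted p = 0.0293), and the early targets Smad7 and Skil differed by 0.06 and 0.10 without passing. Of the 11 that did not pass, Tgfbi, Col1a1, Col1a2 and Snai1 differed by 0.05, 0.003, 0.06 and 0.24 (adjusted p = 0.821, 0.988, 0.792 and 0.234). Tgif1, Bhlhe40 and Dact1 differed by −0.16, −0.12 and −0.22 (adjusted p = 0.304, 0.679 and 0.232), and Tagln and Ltbp2 had dim probesets.

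Of 24 BMP targets, 2 rose and 5 fell, with a median log2 fold change of −0.04. The share that passed was 29.2%, beside 33.4% of all genes with bright probesets, which 17 of the 24 had. Dlx2, a homeobox gene of craniofacial crest, had 9.53, 9.68 and 9.25 in Nedd4 siRNA cells, against 10.21, 10.40 and 10.27 in control siRNA cells (−0.81, adjusted p = 0.000356, SE 0.113). Tbx2, a T-box repressor, had 7.88, 7.76 and 7.47 in Nedd4 siRNA cells, against 8.40, 8.53 and 8.14 in control siRNA cells (−0.65, adjusted p = 0.00305, SE 0.126). Both fell with no overlap between groups. The other falls were Bambi and Nog, given above, and Sp7 (−0.39, adjusted p = 0.0215), with a dim probeset. Junb, also on the TGF-beta list, and Dlx5 (0.33, adjusted p = 0.0487) rose. The 4 Id genes Id1 to Id4, direct BMP targets, differed by −0.15 to 0.13 and did not pass (adjusted p between 0.357 and 0.803). The difference between the 2 target lists was not tested.

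**Figure D4:**
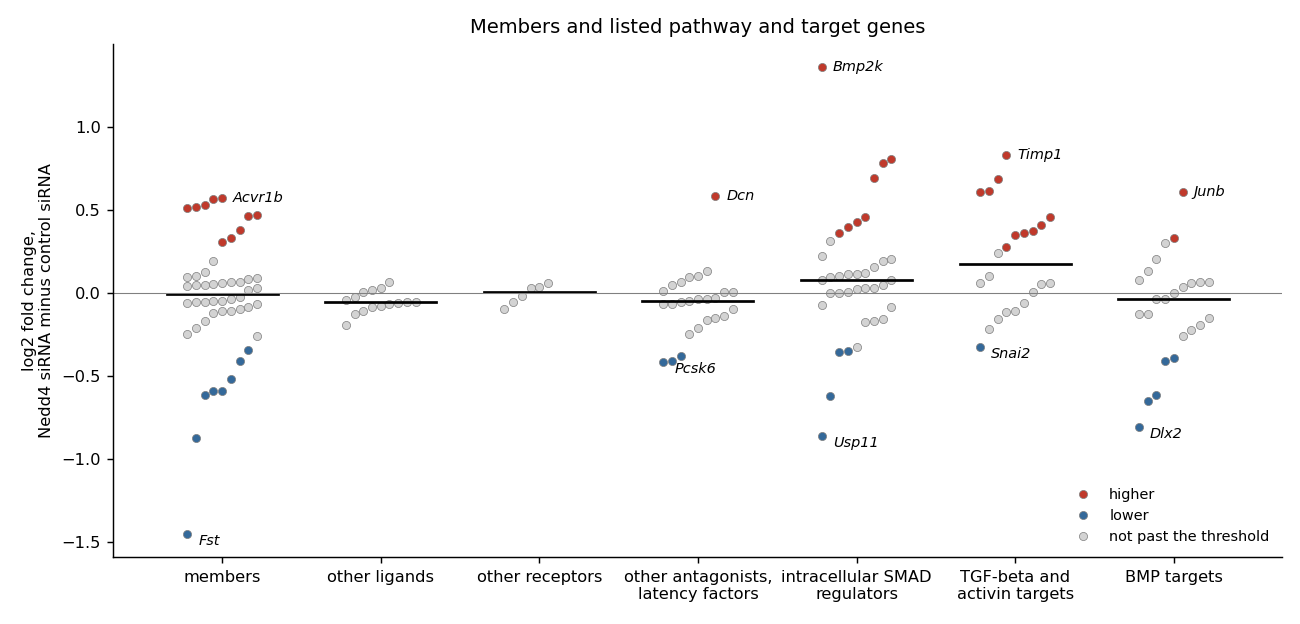
Log2 fold change, Nedd4 siRNA minus control siRNA (y axis), of the 50 genes ("members") and of the listed other pathway genes and target genes (x axis). Each point is a gene, red and blue where it passed the threshold, and black lines are medians. TGF-beta and activin targets have the highest median, at 0.17, and ligands and receptors outside the 50 have no coloured point.

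Cell type markers were measured beside these genes. Of 16 neural crest and glial markers 2 rose and 8 fell, a share of 62.5%. This stands beside 18.7% of all genes and 33.4% of those with bright probesets. Their mean log2 level was 8.41 to 8.52 on the Nedd4 siRNA arrays, against 8.66 to 8.73 on the control siRNA arrays. Among those that define the lineage, Sox10 had 10.65, 10.73 and 10.53 in Nedd4 siRNA cells, against 11.08, 11.19 and 10.93 in control siRNA cells. Foxd3 had 8.94, 9.11 and 8.94 in Nedd4 siRNA cells, against 9.44, 9.57 and 9.59 in control siRNA cells. Both were lower without overlap (adjusted p = 0.00864 and 0.00136), as was the neuregulin receptor Erbb3 (−1.14, adjusted p = 2.93e-05), and Cdh6 fell (−0.87). Sox9 (0.66) and Twist1 (0.31, adjusted p = 0.0419) rose. Ngfr, Pax3 and S100b, with bright probesets, differed by −0.15, −0.08 and 0.13 and did not pass (adjusted p = 0.369, 0.71 and 0.494). Of the 16, 13 had bright probesets, and Tfap2b, Zic1 and Ednrb had dim ones. Of 12 mesenchymal and smooth muscle markers 4 rose and 1 fell, a share of 41.7%, and 8 of the 12 had bright probesets. Their mean log2 level was 7.72 to 7.79 on the Nedd4 siRNA arrays, against 7.49 to 7.57 on the control siRNA arrays. Those that rose were Pdgfra (0.81, adjusted p = 4.98e-05), Dcn, Pdgfrb (0.54, adjusted p = 0.00129) and Des (0.36, adjusted p = 0.0217). The fall was that of Col3a1 (−0.32, adjusted p = 0.0449). Col1a1 and Postn, with bright probesets, did not pass (adjusted p = 0.988 and 0.081). The call for Des was lost without control siRNA replicate 3 (adjusted p = 0.0727) or Nedd4 siRNA replicates 1 (0.14) or 3 (0.0765). Acta2, Myh11 and Cnn1, which define smooth muscle, did not pass, and Myh11 and Cnn1 had dim probesets. The part of these markers in the pathway results was not tested. None of 7 neuronal, 6 endothelial, 6 epithelial and 6 macrophage markers passed by limma. At an unadjusted p under 0.05 and by the methods' t-test 0 passed. Of these 25 genes 23 had dim probesets, among which 3.03% of all genes passed by limma. The smallest p of these 4 lists were those of Isl1 and Rbfox3 (adjusted p = 0.531 and 0.652), Tek and Pecam1 (0.247 and 0.68), Krt8 and Epcam (0.371 and 0.484), and Cd14 and Csf1r (0.495 and 0.566).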

How the data were processed

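RNA of 3 Nedd4 siRNA and 3 control siRNA samples of NCU10K cells was measured on 1 array each. The authors made the deposited log2 expression values of 28440 probesets with Partek, given as 6.5 in the submitters' notes, by RMA background correction, correction for GC content, and averaging of the probes of a probeset. No further normalization was applied, and the scans were not used here. Of the probesets, 21780 had 1 gene symbol, 1618 several and 5042 none, by the platform annotation. A gene is given by its probeset with the highest mean over the 6 arrays.

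The siRNA groups were tested in limma 3.58.1 under R 4.3.3 (lmFit and eBayes, default settings, no covariate, two-sided, Benjamini-Hochberg over all probesets, threshold 0.05), which was tested on simulated data. Replicates came from separate experiments. Python 3.11.15, NumPy 2.4.6, pandas 2.3.3, SciPy 1.17.1 and Matplotlib 3.10.9 were used for counts and figures. The 50 genes and the 12 gene lists were chosen with earlier results of these data known, and 10 listed genes were not analysed here. Every pathway gene past the threshold is named with each array's value, with every SMAD and type II receptor, and up to 4 genes per list by smallest p (2 where none passes). Nedd4l, Ctdspl, Usp11, Wwp2, Wwp1, Itch, Smurf1, Skil, Id1 to Id4, the other listed genes past the threshold and the marker genes named beside them were named after their values were seen.

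Alternatives were the methods' t-test (an analysis of variance per probeset, with the siRNA as its factor), trend and robust fitting, array weights, median centring, quantile normalization, a replicate block, dropping the dimmest 25% or 50% of probesets, a threshold of 0.01, averaging the probesets of a gene, and leaving out each array.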

Additional observations from a re-analysis of the deposited data

How the results depend on the processing

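The numbers of pathway genes, other pathway genes and target genes past the threshold were 18, 16 and 17 in the analysis reported, among 4579 probesets. By the methods' t-test they were 6 and 3 for pathway genes and target genes, among 2134 probesets, and 12 for other pathway genes. At an adjusted p under 0.01 they were 11, 10 and 9, among 2881 probesets. With each array left out in turn, pathway genes ranged between 12 and 16, other pathway genes between 11 and 16, target genes between 9 and 15, and probesets between 2962 and 4312, with the lowest count of each without Nedd4 siRNA replicate 1. Nedd4 stayed past the threshold under every alternative, with log2 fold changes between −1.76 and −1.50.

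Array weights were 3.86 for Nedd4 siRNA replicate 1 and between 0.651 and 0.918 for the other arrays. Deviations of samples with the same number had correlations of −0.0123, 0.472 and −0.0131 for numbers 1, 2 and 3. The samples numbered 2 thus deviated together in part. Whether samples with the same number were handled together is not given by the labels and was not tested. With the replicate block 4962 probesets, 18 pathway genes, 17 other pathway genes and 17 target genes passed. Of the 32 pathway genes not past the threshold, 13 changed sign under at least 1 alternative, with log2 fold changes between −0.18 and 0.17, and 1 (Smad6) passed under some. With arrays left out Smad7 ranged between −0.045 and 0.145, and Tdgf1 between −0.157 and 0.0083. Dim probesets, where 3.03% of all genes passed, hold 22 of the 50 genes.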

Other observations

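Pathway genes that lie beside each other among protein-coding genes in the RefSeq table formed 3 pairs, which were looked for after the results were known. Acvr1b, the activin type I receptor, had a log2 fold change of 0.57 (adjusted p = 0.000884 from limma), while its neighbour on chromosome 15, Acvrl1, had one of −0.25 (adjusted p = 0.109). On chromosome 2, Acvr1 was at 0.53 (adjusted p = 0.000835) and Acvr1c, with a dim probeset, at −0.07 (adjusted p = 0.74). On chromosome 9, Smad3 was at 0.51 (adjusted p = 0.00341) and Smad6 at −0.26 (adjusted p = 0.0643). The differences within pairs were not tested.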
